A study of Mus musculus with 8 samples.

Results

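Pancreatic islets of hIAPP transgenic mice that had been treated with 4-phenylbutyrate (PBA) were set against islets of untreated wild-type mice. The comparison asks how far treated transgenic islets were from the untreated normal state. It uses 4 of the 8 arrays of the study, 2 from PBA-treated hIAPP mice and 2 from untreated wild-type mice, picked by their titles, and covers 17097 genes. The PBA-treated hIAPP mice carried the human islet amyloid polypeptide gene and received PBA in water at 1 g/kg/day for 12 weeks, starting at 8 weeks of age. The untreated wild-type mice had the same age, 20 weeks, when islets were isolated. The other groups, used here as context and in the shared estimate of the spread, were untreated hIAPP mice and PBA-treated wild-type mice, again with 2 arrays each. All groups carry the strain label FVB/N-Tg(Ins2-IAPP)RFHSoel/J, wild type included. As this name gives it, the Ins2 promoter drives the transgene, so the human peptide is made in beta cells. Whether the 2 arrays of a group are separate mice or pools is not stated, so p-values measure only the spread between these samples. The transgene's own transcript was not analysed here.

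Islet amyloid polypeptide is a hormone that beta cells store and release together with insulin. The human form can misfold into amyloid fibrils, which collect in islets in type 2 diabetes, where macrophages take them up, whereas the mouse form does not form fibrils. PBA is a small fatty acid that acts as a chemical chaperone, easing the folding of proteins in the endoplasmic reticulum (ER), and also inhibits histone deacetylases.

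Values are levels on the log2 scale, so that a difference of 1 is a 2-fold change, and a change is the mean of PBA-treated hIAPP minus the mean of untreated wild type. The background is set here at 4.68, the 95th percentile of the non-specific control probe sets, whose median was 3.10. The islet label held on every array: Ins2, an insulin gene, was at 14.0 and 14.0 in PBA-treated hIAPP islets, against 14.0 and 14.1 in untreated wild-type islets. Gcg, Sst and Ppy, the hormones of the other endocrine cells, lay between 12.6 and 13.6 in both groups. Acinar genes, which code for the digestive enzymes of the exocrine pancreas around the islets, differed with the groups. The median level of 33 of them was 7.9 and 9.6 on the PBA-treated hIAPP arrays, against 12.0 and 10.2 on the untreated wild-type arrays. Spiked-in control RNAs were dimmer on array 1 of the PBA-treated wild type, with a median of 7.1, than on the other 7 arrays, with 9.8 to 10.2. In such whole-islet RNA, fewer cells of a type and less RNA per cell cannot be told apart.

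Over all genes, PBA-treated hIAPP islets lay closer to untreated wild-type islets than untreated hIAPP islets did. The mean absolute difference between a PBA-treated hIAPP array and an untreated wild-type array was 0.205 to 0.225 over the 4 such pairs. Between 2 arrays of the same group it was 0.184 for PBA-treated hIAPP, 0.171 for untreated wild type, 0.180 for untreated hIAPP and 0.212 for PBA-treated wild type. Only the last value, from the pair that holds the array with dimmer control RNAs, reaches the range of the compared pairs. Between an untreated hIAPP array and an untreated wild-type array the mean absolute difference was 0.299 to 0.327. Between a PBA-treated and an untreated wild-type array it was 0.192 to 0.247, a range that holds that of the compared pairs. The highest values there, 0.228 and 0.247, were from pairs with the array with dimmer control RNAs. The number of genes at least 2-fold apart was 155 to 245 for PBA-treated hIAPP with untreated wild-type pairs, 67 to 103 within groups, and 850 to 1026 for untreated hIAPP with untreated wild-type pairs. For PBA-treated with untreated wild-type pairs it was 112 to 290. The mean was chosen over the median after the data were seen, because the deposited values carry 1 decimal and the median of the absolute differences took few values, 0.200 for the compared pairs and 0.125 within groups. These distances are descriptions, with no test.

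**Figure D1:**
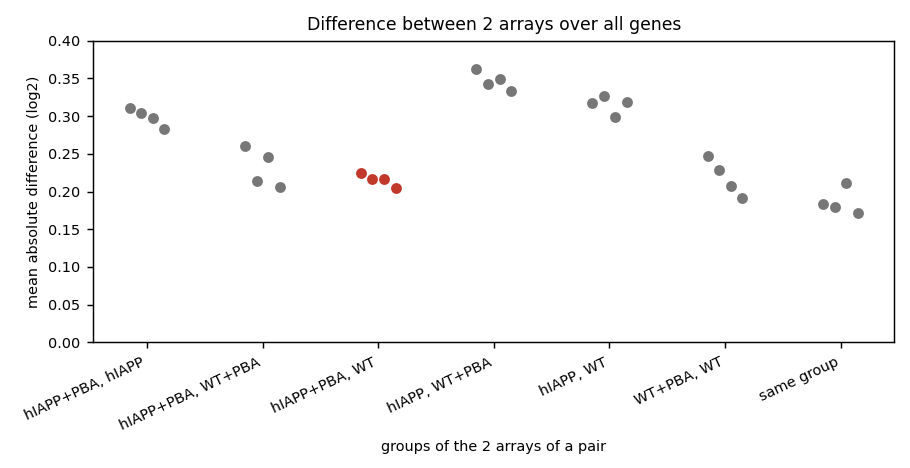
Mean absolute log2 difference over 17097 genes for every pair of the 8 arrays, grouped by the groups the arrays belong to. The pairs of PBA-treated hIAPP with untreated wild type (red) sit at 0.205 to 0.225, under the pairs of untreated hIAPP with untreated wild type, at 0.299 to 0.327. The pairs within a group sit at 0.171 to 0.212, where 0.212 is PBA-treated wild type and the others end at 0.184. Pairs of PBA-treated with untreated wild type sit at 0.192 to 0.247.

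Of the 17097 genes, 63 passed a limma test of all 8 arrays at a Benjamini-Hochberg adjusted p of 0.05, or 0.368% of genes. They were 43 higher genes (0.252%) and 20 lower genes (0.117%), and 34 of the higher (0.199% of genes) and 12 of the lower (0.0702%) changed at least 2-fold, 46 in all (0.269%). The same fit called 1874 genes (11.0%) between untreated hIAPP and untreated wild-type islets and 50 (0.292%) between PBA-treated and untreated wild-type islets, comparisons that share the wild-type arrays. The median change over all genes was 0.00, with an interquartile range of -0.15 to 0.10. The arrays of the groups compared did not overlap in any of the 63 genes, while over all genes 15.3% had non-overlapping arrays with the PBA-treated hIAPP ones higher, and 16.0% with them lower. The count rests on few arrays. Without any one of the 4 compared arrays only Sema5a and Snhg18 passed, as they did with the acinar level as a covariate, and a limma fit of only the 4 compared arrays called 0 genes, with 2440 at an unadjusted p under 0.05.

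**Figure D2:**
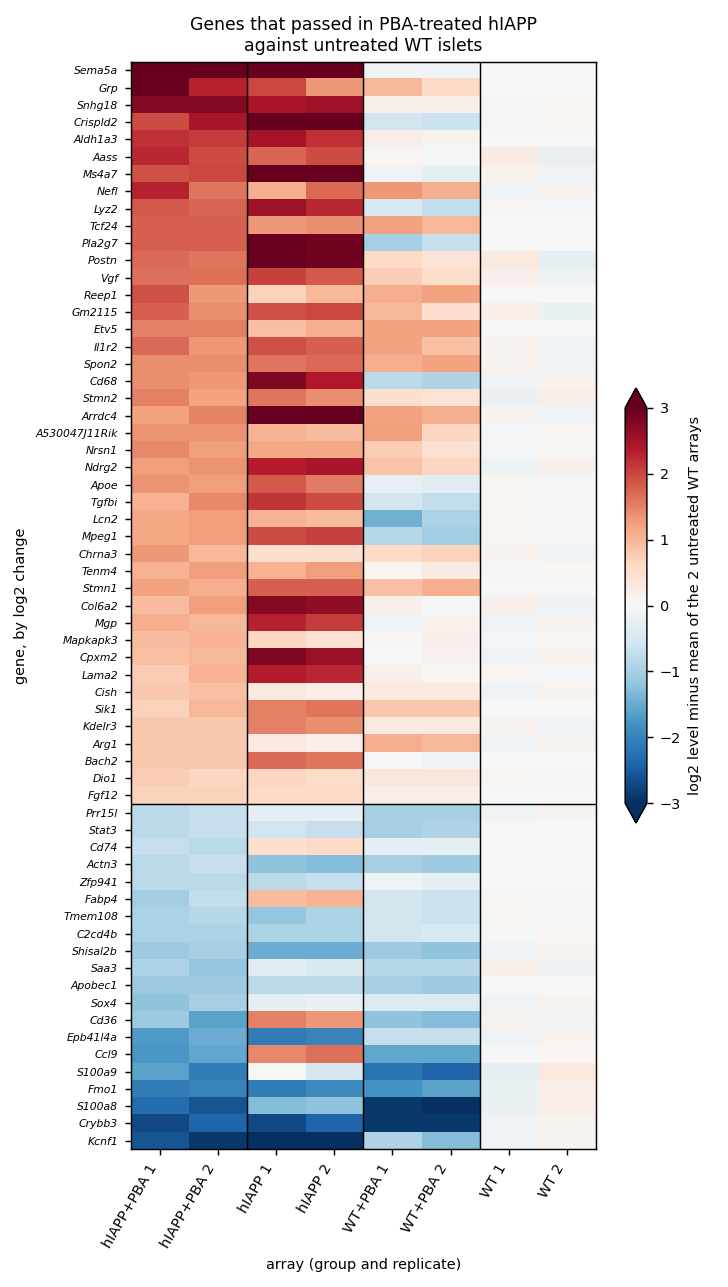
The 63 genes that passed, one row each, ordered by their log2 change, with higher genes above the line and lower genes below it. Columns are the 8 arrays, and colour is the log2 level minus the mean of both untreated wild-type arrays, with values past 3 in the end colour. The higher genes run from 0.70 to 4.55 and the lower genes from -0.75 to -2.75, and columns of untreated hIAPP and PBA-treated wild type show where those groups lie.

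The largest change was in Sema5a, a membrane semaphorin that guides growing axons, and it was joined by its neighbour Snhg18, a long noncoding RNA that hosts a small nucleolar RNA. Sema5a was at 9.4 and 9.7 in PBA-treated hIAPP islets, at 9.8 and 9.8 in untreated hIAPP islets, at 4.9 and 4.9 in PBA-treated wild-type islets, and at 5.0 and 5.0 in untreated wild-type islets. All 4 transgenic arrays were thus high and all 4 wild-type arrays close to background. The change against untreated wild type was 4.55 (SE 0.12, adjusted p = 2.0e-05), or 23.4-fold. Snhg18 was at 10.0 and 10.0 in PBA-treated hIAPP islets, at 9.7 and 9.8 in untreated hIAPP islets, at 7.4 and 7.4 in PBA-treated wild-type islets, and at 7.2 and 7.3 in untreated wild-type islets. Again the genotypes did not overlap, and the change was 2.75 (SE 0.10, adjusted p = 8.4e-05). In hIAPP islets, neither Sema5a (-0.25, adjusted p = 0.2671) nor Snhg18 (0.25, adjusted p = 0.1721) passed for PBA-treated against untreated.

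Both genes lie side by side on mouse chromosome 15 and are transcribed away from each other. The RefSeq promoter window of Sema5a (GRCm38.p6, chr15:32244563-32244862, plus strand) is shown because it holds both transcript starts, and the capitals mark the 150 bases between them, of which 79.3% are G or C, against a mean of 53.8% over the windows of all promoters.
Sema5a: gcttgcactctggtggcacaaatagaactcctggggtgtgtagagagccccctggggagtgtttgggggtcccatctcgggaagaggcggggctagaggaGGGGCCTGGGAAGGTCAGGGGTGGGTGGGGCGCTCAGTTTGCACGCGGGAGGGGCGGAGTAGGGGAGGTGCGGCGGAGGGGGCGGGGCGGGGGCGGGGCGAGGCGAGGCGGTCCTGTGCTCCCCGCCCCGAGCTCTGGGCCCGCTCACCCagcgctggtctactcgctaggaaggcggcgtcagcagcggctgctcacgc
None of the 19 other measured genes among the 10 on either side passed in this comparison. Their changes ran from -0.70 (Cmbl, adjusted p = 0.0573) to 0.55 (Matn2). For untreated hIAPP minus untreated wild type, Cmbl (-0.80, adjusted p = 0.0038), Dap (-0.40, adjusted p = 0.0403) and Matn2 (1.80, adjusted p = 0.0017) passed in the same fit. The genotypes did not overlap in Cmbl, Cpq and Matn2. Of the 4 probe sets that name Sema5a, 3 changed by 2.35, 5.20 and 4.55, and the remaining set, at background on all arrays, differed by 0.20.

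**Figure D3:**
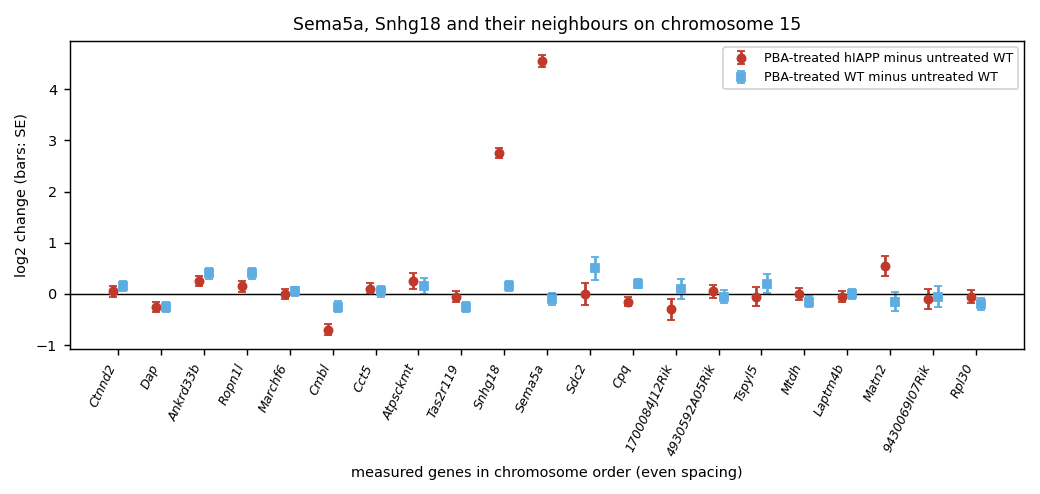
Log2 change, with the standard error as bars, of Sema5a, Snhg18 and the measured genes around them in chromosome order with even spacing. Red points are PBA-treated hIAPP minus untreated wild type and blue squares PBA-treated minus untreated wild type. Only Sema5a, at 4.55, and Snhg18, at 2.75, stand above 1 in red, and the 19 neighbours lie between -0.70 and 0.55.

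Beta-cell genes had a median change of 0, and 1 gene tied to loss of beta-cell maturity rose. All gene lists used here were chosen with earlier results of these data known. Their counts and medians, also where set beside the shares of all genes, are therefore descriptions and no separate support. Of 33 measured genes for the identity of beta cells and for insulin secretion, 0 passed in either direction, 5 were higher and 2 lower at an unadjusted p under 0.05 (5.80% and 5.16% of all genes), and their median change was 0.00, the same as over all genes. In untreated hIAPP islets their median change against untreated wild type was -0.25. Pdx1, a transcription factor of beta-cell identity, was at 9.3 and 9.4 in PBA-treated hIAPP islets, against 9.4 and 9.4 in untreated wild-type islets, and the change of -0.05 had an adjusted p of 0.9109. Slc2a2, the glucose transporter of mouse beta cells, averaged 12.05 in PBA-treated hIAPP and in untreated wild-type islets, and 11.60 in untreated hIAPP islets. Ucn3, a peptide gene of mature beta cells, was at 11.4 and 11.4 in PBA-treated hIAPP islets, at 10.9 and 10.9 in untreated hIAPP islets, and at 11.7 and 11.8 in untreated wild-type islets. The arrays did not overlap, but the difference of -0.35 from untreated wild type did not pass (SE 0.12, adjusted p = 0.3453).

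Aldh1a3, a retinaldehyde dehydrogenase known as a marker of dedifferentiated beta cells, was 1 of 24 measured genes of beta-cell immaturity and disallowed genes, and the only member that passed. Its level was 9.6 and 9.5 in PBA-treated hIAPP islets, 9.9 and 9.6 in untreated hIAPP islets, 7.6 and 7.5 in PBA-treated wild-type islets, and 7.4 and 7.4 in untreated wild-type islets. It was high on all 4 transgenic arrays, treated or not, with a change of 2.15 (SE 0.12, adjusted p = 0.0015), and its other 2 probe sets changed by 2.05 and 1.30. Kcnf1, a potassium channel subunit that forms no channel by itself, had the largest fall. It was at 5.8 and 5.5 in PBA-treated hIAPP islets, at 4.9 and 5.1 in untreated hIAPP islets, at 7.5 and 7.1 in PBA-treated wild-type islets, and at 8.3 and 8.5 in untreated wild-type islets. No group overlapped another, untreated hIAPP was lowest and untreated wild type highest, and the change was -2.75 (SE 0.17, adjusted p = 0.0020). Kcnf1 was the 1 lower gene among 27 measured potassium and calcium channel genes, whose median change was 0.00. None of 19 genes of exocytosis passed (median 0.00).

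The peptide genes Grp and Vgf and the neurofilament gene Nefl were among the genes that rose. Grp, the precursor of gastrin-releasing peptide, was at 6.6 and 5.6 in PBA-treated hIAPP islets, at 5.3 and 4.6 in untreated hIAPP islets, at 4.3 and 3.9 in PBA-treated wild-type islets, and at 3.3 and 3.3 in untreated wild-type islets. Untreated wild-type islets were at background and PBA-treated hIAPP islets highest, with a change of 2.80 (SE 0.35, adjusted p = 0.0331). Vgf, which makes granule peptides of neuroendocrine cells, was at 8.2 and 8.2 in PBA-treated hIAPP islets, at 8.6 and 8.4 in untreated hIAPP islets, at 7.3 and 7.1 in PBA-treated wild-type islets, and at 6.7 and 6.4 in untreated wild-type islets. The change was 1.65 (SE 0.14, adjusted p = 0.0051). Grp and Vgf were the 2 members that passed of 19 measured neuropeptide genes, whose median change was 0.15. At an unadjusted p under 0.05, 8 of the 19 were higher and 1 lower, against 5.80% and 5.16% of all genes. Vip, vasoactive intestinal peptide, named after its values were seen, had a difference of 3.0 that did not pass (SE 0.53, adjusted p = 0.1003). It was at 10.3 and 9.5 in PBA-treated hIAPP islets, against 6.0 and 7.8 in untreated wild-type islets, which lay far apart. Npy, an appetite peptide expressed in islets, was at 8.9 and 8.4, against 8.5 and 8.5 in untreated wild-type islets, whereas it was at 7.2 and 7.2 in untreated hIAPP islets.

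Nefl, the neurofilament light chain of axons, was 1 of 16 measured genes of Schwann cells and nerve and the only member that passed. It was at 6.2 and 5.5 in PBA-treated hIAPP islets, against 3.8 and 4.0 in untreated wild-type islets, a change of 1.95 (SE 0.27, adjusted p = 0.0424). The means of the other groups were between, with arrays at 5.0 and 5.6 in untreated hIAPP islets and 5.2 and 5.0 in PBA-treated wild-type islets. The list's median change was 0.35, and 7 of 16 members were higher at an unadjusted p under 0.05, against 5.80% of all genes. No list covered neurons as such, and single genes known from neurons that rose are named after their values were seen. They were Stmn2 (1.35) and Stmn1 (1.15), which destabilise microtubules, Nrsn1 (1.35), a membrane protein of neuronal vesicles, Reep1 (1.60), which shapes the tubular ER, Tenm4 (1.15), a teneurin of synapse and axon formation, and Chrna3 (1.15), a nicotinic receptor subunit. Chrna3 stayed under 4.68 in all groups, and its 3 probe sets disagreed in sign. PBA-treated wild-type islets also differed from untreated ones, by 1.15 in Reep1, 1.00 in Stmn1 and 0.65 in Chrna3. The differences there were 0.60 in Nrsn1, 0.45 in Stmn2 and 0.15 in Tenm4. Of these genes only Stmn1 passed there in the same limma fit (adjusted p = 0.0197). Tcf24, a basic helix-loop-helix transcription factor, was at 10.0 and 10.0 in PBA-treated hIAPP islets, at 9.5 and 9.6 in untreated hIAPP islets, at 9.4 and 9.2 in PBA-treated wild-type islets, and at 8.2 and 8.2 in untreated wild-type islets (1.80, SE 0.11, adjusted p = 0.0015).

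A subset of macrophage genes was above wild type. Of 31 measured pan-macrophage genes, 4 passed, all higher, against 0.252% of all genes. At an unadjusted p under 0.05, 16 were higher and 1 lower, against 5.80% and 5.16% of all genes. The median change of the list was 0.50, against 0.00 over all genes, and in untreated hIAPP islets it was 1.75. The median level of the list was 6.9 and 6.8 in PBA-treated hIAPP islets, 8.2 and 7.9 in untreated hIAPP islets, 5.8 and 5.6 in PBA-treated wild-type islets, and 6.1 and 6.3 in untreated wild-type islets. Ms4a7, a membrane protein of tissue macrophages, was at 8.3 and 8.4 in PBA-treated hIAPP islets, at 9.7 and 9.4 in untreated hIAPP islets, at 6.3 and 6.1 in PBA-treated wild-type islets, and at 6.5 and 6.3 in untreated wild-type islets. PBA-treated hIAPP islets lay between untreated hIAPP and both wild-type groups, and the change was 1.95 (SE 0.14, adjusted p = 0.0029). Lyz2, the lysozyme of myeloid cells, was at 10.8 and 10.7 in PBA-treated hIAPP islets, at 11.5 and 11.2 in untreated hIAPP islets, and at 9.0 and 8.9 in untreated wild-type islets (1.80, SE 0.15, adjusted p = 0.0046). Cd68, a lysosomal glycoprotein of macrophages, was at 7.5 and 7.4 in PBA-treated hIAPP islets, at 8.9 and 8.5 in untreated hIAPP islets, and at 6.0 and 6.2 in untreated wild-type islets (1.35, SE 0.15, adjusted p = 0.0201). Mpeg1, the pore-forming perforin-2 of phagocytes, changed by 1.20 (SE 0.11, adjusted p = 0.0088). Pla2g7, which hydrolyses platelet-activating factor, was at 7.5 and 7.5 in PBA-treated hIAPP islets, at 8.8 and 8.6 in untreated hIAPP islets, and at 5.7 and 5.7 in untreated wild-type islets (1.80, SE 0.13, adjusted p = 0.0029).

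Ccl9, S100a8, S100a9, Cd36, Fabp4, Saa3 and Cd74 fell, while Il1r2 and Lcn2, described further on, rose. S100a8 and S100a9 belong to no list. The chemokine gene Ccl9 was at 4.0 and 4.2 in PBA-treated hIAPP islets, at 7.2 and 7.4 in untreated hIAPP islets, at 4.2 and 4.2 in PBA-treated wild-type islets, and at 5.7 and 5.8 in untreated wild-type islets. It was at background on all 4 PBA arrays and above it on all 4 untreated arrays, and the change was -1.65 (SE 0.12, adjusted p = 0.0029). Its other probe set differed by only -0.20, at 3.8 and 3.9 in PBA-treated hIAPP islets, against 3.9 and 4.2 in untreated wild-type islets. In that set both compared groups were under the background, and untreated hIAPP islets were at 5.4 and 5.8. S100a8, a subunit of the neutrophil and monocyte protein calprotectin, was at 4.5 and 4.2 in PBA-treated hIAPP islets, at 5.5 and 5.6 in untreated hIAPP islets, at 3.9 and 3.8 in PBA-treated wild-type islets, and at 6.6 and 7.0 in untreated wild-type islets. The change was -2.45 (SE 0.16, adjusted p = 0.0024), and that of S100a9, the other subunit, was -1.85 (SE 0.26, adjusted p = 0.0485). Cd36, a scavenger receptor for oxidised lipids, was at 5.8 and 5.3 in PBA-treated hIAPP islets, at 8.4 and 8.2 in untreated hIAPP islets, at 5.7 and 5.6 in PBA-treated wild-type islets, and at 7.0 and 6.8 in untreated wild-type islets. Levels on all 4 PBA arrays lay under those on all 4 untreated arrays, with a change of -1.35 (SE 0.18, adjusted p = 0.0376). The fatty acid carrier Fabp4 (-0.90, SE 0.13, adjusted p = 0.0478), the serum amyloid gene Saa3 (-1.05, SE 0.13, adjusted p = 0.0335) and Cd74, the invariant chain of MHC class II (-0.75, SE 0.10, adjusted p = 0.0344), fell as well. The PBA-treated hIAPP means of Ccl9, S100a8, S100a9 and Saa3 lay under the background, which limits the size of their changes.

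In the lists that hold Ccl9, Cd36, Fabp4 and Cd74, members differed in both directions. Of all genes, 0.252% passed higher and 0.117% lower, and 5.80% were higher and 5.16% lower at an unadjusted p under 0.05. Of 16 measured lipid-handling macrophage genes, 1 was higher, Apoe, and 2 lower, Cd36 and Fabp4, and 5 were higher and 3 lower at an unadjusted p under 0.05 (median 0.22, against 1.67 in untreated hIAPP minus untreated wild type). Of 31 chemokine genes and receptors, 1 was lower, Ccl9, and 5 were higher and 6 lower at an unadjusted p under 0.05 (median -0.20, against 0.75 there). Cd74 was the 1 of 17 MHC class II genes that passed, lower, and 1 was higher and 5 lower at an unadjusted p under 0.05 (median -0.20, against 0.55 there). Mmp12, the macrophage elastase, was at 4.7 and 4.7 in PBA-treated hIAPP islets, at 9.1 and 8.9 in untreated hIAPP islets, and at 5.6 and 5.9 in untreated wild-type islets. Its difference of -1.05 from untreated wild type did not pass (SE 0.17, adjusted p = 0.0704). Gpnmb, a lysosomal glycoprotein of macrophages, was at 5.6 and 5.6 in PBA-treated hIAPP islets, at 9.6 and 8.7 in untreated hIAPP islets, and at 5.5 and 5.9 in untreated wild-type islets (-0.10, SE 0.33, adjusted p = 0.9194). Arg1, an arginase of alternatively activated macrophages, changed by 0.80 (SE 0.11, adjusted p = 0.0424) and was the 1 of 14 measured genes of that list that passed. The median change of that list was -0.22, with 3 members above 0 and 9 below, and 1 was higher and 3 lower at an unadjusted p under 0.05. Arg1 was at 8.6 and 8.6 in PBA-treated hIAPP islets, at 8.9 and 8.8 in PBA-treated wild-type islets, at 8.1 and 8.0 in untreated hIAPP islets, and at 7.7 and 7.9 in untreated wild-type islets, high on all 4 PBA arrays. Il1r2, a decoy receptor for interleukin-1, was the 1 of 27 inflammasome, interleukin-1 and Toll-like receptor genes that passed (1.50, SE 0.17, adjusted p = 0.0201). The median change of these 27 was -0.05, with 5 above 0 and 19 below, and 2 were higher and 3 lower at an unadjusted p under 0.05. Lcn2, an iron-scavenging acute phase protein, was at 6.0 and 6.1 in PBA-treated hIAPP islets, at 5.9 and 5.8 in untreated hIAPP islets, at 3.4 and 3.9 in PBA-treated wild-type islets, and at 4.9 and 4.8 in untreated wild-type islets (1.20, SE 0.16, adjusted p = 0.0424). Lcn2 and Saa3 were the 2 of 17 acute phase and antiprotease genes that passed, in opposite directions.

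Matrix and stromal genes were above wild type in part. Of 29 measured genes of stellate cells, pericytes and smooth muscle, 4 passed, all higher (Sema5a, Crispld2, Postn and Mgp), against 0.252% of all genes. At an unadjusted p under 0.05, 15 were higher and 1 lower, against 5.80% and 5.16% of all genes. The median change was 0.45, and 2.0 in untreated hIAPP islets. As the lists were chosen with earlier results of these data known, the calls of Sema5a and the other members of this one are no separate support. For PBA-treated minus untreated hIAPP, Sema5a differed by -0.25, against a list median of -1.45. Crispld2, a secreted glycoprotein, was at 6.7 and 7.2 in PBA-treated hIAPP islets, at 8.2 and 7.9 in untreated hIAPP islets, at 4.2 and 4.1 in PBA-treated wild-type islets, and at 4.7 and 4.8 in untreated wild-type islets (2.20, SE 0.18, adjusted p = 0.0046). PBA-treated hIAPP islets were again between untreated hIAPP and wild type. Postn, the matrix protein periostin, was at 8.2 and 8.1 in PBA-treated hIAPP islets, at 9.8 and 9.4 in untreated hIAPP islets, and at 6.8 and 6.2 in untreated wild-type islets (1.65, SE 0.22, adjusted p = 0.0376). In PBA-treated wild-type islets Postn was at 7.1 and 6.9. Mgp, matrix Gla protein, an inhibitor of calcification, was at 11.3 and 11.2 in PBA-treated hIAPP islets, at 12.5 and 12.3 in untreated hIAPP islets, and at 10.1 and 10.3 in untreated wild-type islets (1.05, SE 0.13, adjusted p = 0.0331). Of 24 collagen genes, Col6a2 passed (1.10, SE 0.15, adjusted p = 0.0468), and the median change was 0.15, against 1.20 in untreated hIAPP islets. At an unadjusted p under 0.05, 9 of the 24 were higher and 0 lower, beside the same shares of all genes. Col1a1, a chain of the main fibrillar collagen, had a difference of 0.85 (SE 0.23, adjusted p = 0.2214), and Lum, the proteoglycan lumican, of 1.75 (SE 0.35, adjusted p = 0.1225), and neither passed. Lama2, a laminin chain (0.90), Spon2, a secreted matrix protein (1.40), and Cpxm2, a secreted carboxypeptidase-like protein (0.95), passed and are named after their values were seen. Spon2 was at 7.2 and 7.2 in PBA-treated hIAPP islets, against 6.9 and 7.0 in PBA-treated wild-type islets. In the same limma fit, Spon2 also passed for PBA-treated minus untreated wild type (1.15, adjusted p = 0.0189). The second probe set of Spon2, under 4.68, differed by 0.00. Of 29 endothelial genes 0 passed, and their median was -0.10, against 0.50 in untreated hIAPP islets. At an unadjusted p under 0.05, 0 of these 29 were higher and 5 lower, beside the same shares of all genes. Pecam1, an endothelial adhesion molecule, was at 6.7 and 7.1 in PBA-treated hIAPP islets, against 7.1 and 7.2 in untreated wild-type islets (-0.25, adjusted p = 0.6111).

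Among 26 measured genes of amyloid-associated proteins and amyloid-degrading enzymes, Apoe and Tgfbi passed, both higher, and the median change was 0.15, against 0.48 in untreated hIAPP islets. Apoe, a lipid carrier present in amyloid deposits, was at 11.4 and 11.3 in PBA-treated hIAPP islets, at 11.9 and 11.6 in untreated hIAPP islets, at 9.8 and 9.7 in PBA-treated wild-type islets, and at 10.1 and 10.0 in untreated wild-type islets. All transgenic arrays were above all wild-type arrays, with a change of 1.30 (SE 0.13, adjusted p = 0.0108). Tgfbi, a matrix protein whose mutant forms deposit as amyloid in the human cornea, was at 8.0 and 8.4 in PBA-treated hIAPP islets, at 9.1 and 8.9 in untreated hIAPP islets, and at 7.0 and 6.9 in untreated wild-type islets (1.25, SE 0.16, adjusted p = 0.0335). Aass, which starts lysine breakdown and is in no list, was at 8.4 and 8.1 in PBA-treated hIAPP islets, at 7.9 and 8.1 in untreated hIAPP islets, at 6.2 and 6.1 in PBA-treated wild-type islets, and at 6.4 and 5.9 in untreated wild-type islets (2.10, SE 0.19, adjusted p = 0.0066). It was high on every transgenic array.

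**Figure D4:**
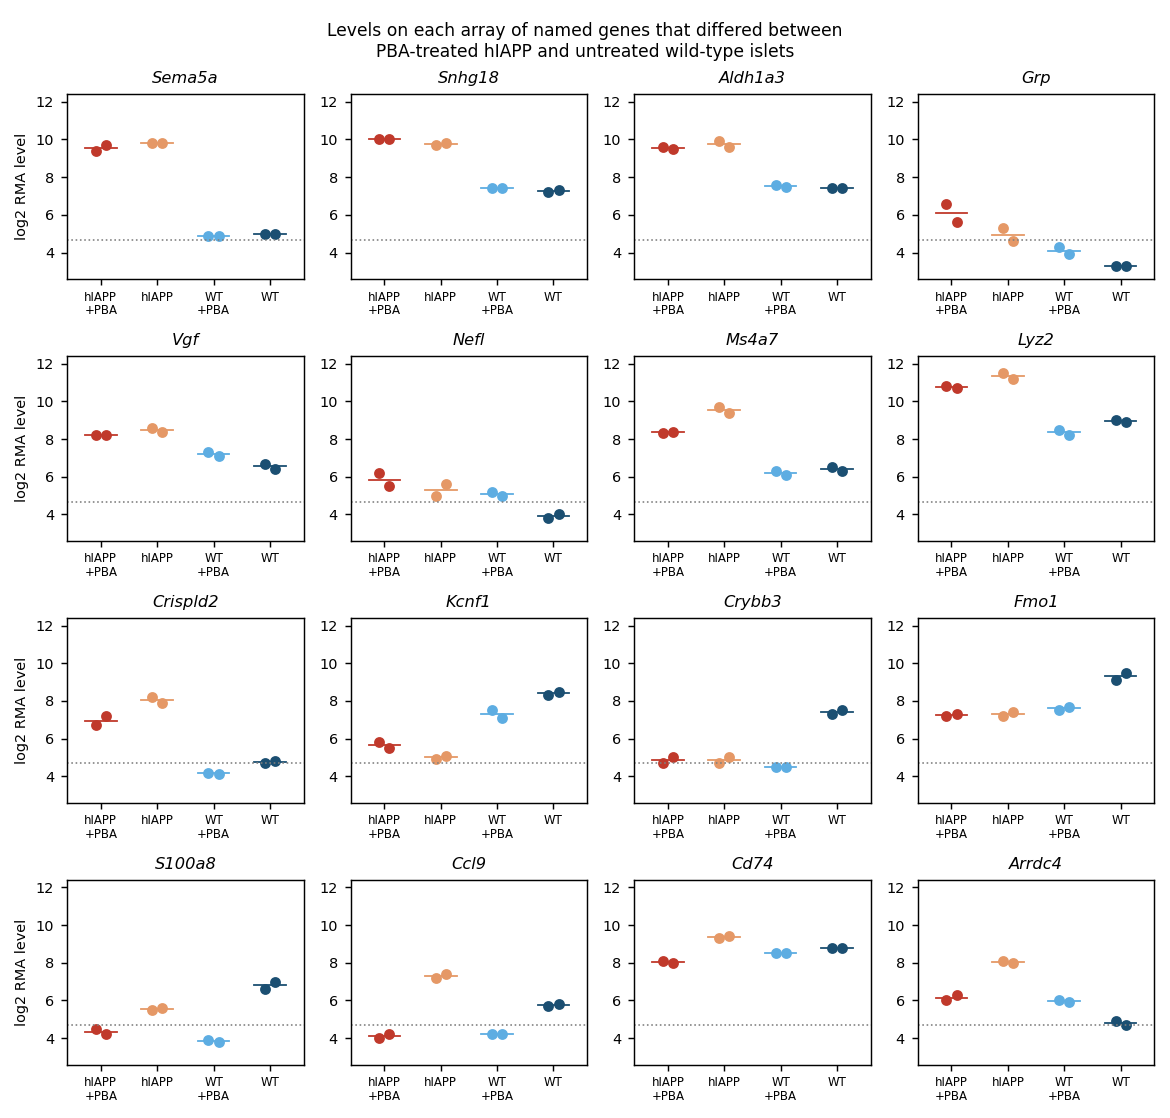
Log2 level of 16 named genes on each array (points), with the group mean as a bar, in the order PBA-treated hIAPP, untreated hIAPP, PBA-treated wild type and untreated wild type. The dotted line marks the background at 4.68. Sema5a, Snhg18 and Aldh1a3 are high on all 4 transgenic arrays, Ms4a7, Lyz2 and Crispld2 are intermediate in PBA-treated hIAPP islets, and Crybb3 and Fmo1 are high only on the untreated wild-type arrays.

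Some genes set untreated wild-type islets apart from the other 3 groups. Grouping the called genes by how the 8 arrays lie was chosen after the values were seen, and the side on which PBA-treated hIAPP lies is fixed by the choice of called genes. Untreated wild type was above the other 6 arrays in 15 of the 20 lower genes (3.32% of all genes) and below them in 25 of the 43 higher genes (2.83% of all genes). All 4 transgenic arrays were above all 4 wild-type arrays in 33 higher genes (3.22% of all genes) and below them in 6 lower genes (2.94%). All 4 PBA arrays were above all 4 untreated arrays in 4 higher genes (1.98%) and below them in 10 lower genes (1.57%). A gene can fall in more than 1 of these patterns. Crybb3, a lens crystallin, was at 4.7 and 5.0 in PBA-treated hIAPP islets, at 4.7 and 5.0 in untreated hIAPP islets, at 4.5 and 4.5 in PBA-treated wild-type islets, and at 7.3 and 7.5 in untreated wild-type islets (-2.55, SE 0.15, adjusted p = 0.0015). It was thus near background in all groups but untreated wild type. Fmo1, a flavin monooxygenase of drug metabolism, was at 7.2 and 7.3 in PBA-treated hIAPP islets, at 7.2 and 7.4 in untreated hIAPP islets, at 7.5 and 7.7 in PBA-treated wild-type islets, and at 9.1 and 9.5 in untreated wild-type islets (-2.05, SE 0.16, adjusted p = 0.0037). Apobec1, a cytidine deaminase that edits Apob mRNA, was at 8.0 and 8.0 in PBA-treated hIAPP islets, at 8.3 and 8.3 in untreated hIAPP islets, at 8.1 and 8.0 in PBA-treated wild-type islets, and at 9.1 and 9.1 in untreated wild-type islets (-1.10, SE 0.09, adjusted p = 0.0051). Etv5, an ETS transcription factor induced by growth factor signalling, was low there instead, at 7.7 and 7.7 in PBA-treated hIAPP islets, at 7.1 and 7.3 in untreated hIAPP islets, at 7.4 and 7.4 in PBA-treated wild-type islets, and at 6.2 and 6.2 in untreated wild-type islets (1.50, SE 0.10, adjusted p = 0.0026). Etv5 was the 1 of 30 immediate early and ERK feedback genes that passed.

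The remaining lower genes were Epb41l4a, a membrane skeleton protein (-1.60, SE 0.12, adjusted p = 0.0030), Sox4, a transcription factor of endocrine development (-1.10, SE 0.12, adjusted p = 0.0170), and Shisal2b (-1.05, SE 0.11, adjusted p = 0.0141). Epb41l4a was at 5.9 and 6.1 in PBA-treated hIAPP islets, against 7.5 and 7.7 in untreated wild-type islets. Sox4 was at 9.4 and 9.6, against 10.5 and 10.7, and was lower on both PBA-treated hIAPP arrays than on all other arrays. Named after their values were seen, C2cd4b, a nuclear protein whose human locus is linked to type 2 diabetes (-0.95), Tmem108 (-0.90), Zfp941, a zinc finger gene (-0.80), Stat3, a cytokine-activated transcription factor (-0.75), Actn3, an alpha-actinin (-0.75), and Prr15l (-0.75) completed the 20. Higher genes named in the same way were Ndrg2 (1.30), Mapkapk3, a kinase activated by p38 (1.00), Cish, a cytokine-induced brake on STAT5 (0.85), Sik1, a salt-inducible kinase (0.85), Kdelr3, which returns ER proteins from the Golgi (0.80), Bach2, a transcriptional repressor (0.80), Dio1, a thyroid hormone deiodinase (0.70), and Fgf12, an intracellular fibroblast growth factor homologue (0.70). The 3 probe sets of Bach2 disagreed in sign. A further 2 higher genes are predicted and are not named.

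Arrdc4, an alpha-arrestin that limits glucose uptake, was the 1 of 18 genes of the Txnip, Arrdc4 and ChREBP axis that passed, and its relative Txnip did not. ChREBP is a glucose-responsive transcription factor that binds paired E-box-like motifs, and both genes are known targets. Arrdc4 was at 6.0 and 6.3 in PBA-treated hIAPP islets, at 8.1 and 8.0 in untreated hIAPP islets, at 6.0 and 5.9 in PBA-treated wild-type islets, and at 4.9 and 4.7 in untreated wild-type islets. Both PBA groups lay together, above untreated wild type and under untreated hIAPP, and the change was 1.35 (SE 0.13, adjusted p = 0.0118). Its other probe set, with a mean level of 6.09 against 6.24, differed by only 0.40, at 5.9 and 5.8 in PBA-treated hIAPP islets, against 5.6 and 5.3 in untreated wild-type islets. Over the mean of both sets the change was 0.88 (adjusted p = 0.0247). Txnip, which binds thioredoxin, was at 10.4 and 10.5 in PBA-treated hIAPP islets, at 12.0 and 11.8 in untreated hIAPP islets, at 10.1 and 10.3 in PBA-treated wild-type islets, and at 10.0 and 10.2 in untreated wild-type islets. The difference of 0.35 did not pass (SE 0.13, adjusted p = 0.3868). The RefSeq promoter windows of both (GRCm38.p6) are shown for the E box, searched on both strands as CACGTG, and for the pair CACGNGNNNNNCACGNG, which was chosen after the Txnip sequence was seen and can overlap single E boxes. Capitals mark matches, in Arrdc4 (chr7:68749189-68749488, minus strand) to CACGTG and in Txnip (chr3:96557707-96558006, plus strand) to the pair.
Arrdc4: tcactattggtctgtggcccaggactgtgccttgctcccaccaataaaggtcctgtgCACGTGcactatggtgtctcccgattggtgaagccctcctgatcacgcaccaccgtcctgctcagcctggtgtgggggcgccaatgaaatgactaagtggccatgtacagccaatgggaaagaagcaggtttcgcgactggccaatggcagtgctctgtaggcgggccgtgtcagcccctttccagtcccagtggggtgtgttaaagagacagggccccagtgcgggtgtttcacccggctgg
Txnip: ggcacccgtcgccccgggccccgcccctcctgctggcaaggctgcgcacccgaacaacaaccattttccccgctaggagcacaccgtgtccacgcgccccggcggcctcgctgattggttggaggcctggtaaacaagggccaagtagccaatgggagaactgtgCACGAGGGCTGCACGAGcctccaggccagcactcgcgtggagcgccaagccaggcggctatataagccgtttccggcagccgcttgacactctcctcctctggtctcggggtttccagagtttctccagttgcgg
CACGTG was in 7.15% of 32851 promoter windows and the pair in 0.0487%. The matches are a description of these windows.

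No gene of the ER stress lists passed in the fit used here. Of 36 genes of ER chaperones, ER-associated degradation and the unfolded protein response, 0 passed, 8 were higher and 0 lower at an unadjusted p under 0.05 (5.80% and 5.16% of all genes), and the median was 0.15. Hspa5, the ER chaperone BiP, was at 11.8 and 11.7 in PBA-treated hIAPP islets, against 11.4 and 11.5 in untreated wild-type islets, and the difference of 0.30 did not pass (SE 0.12, adjusted p = 0.4390). Of 27 targets of the stress factors ATF4 and CHOP, 0 passed, 9 were higher and 2 lower at an unadjusted p under 0.05, beside the same shares of all genes, and the median was 0.10. Ddit3, which codes for CHOP, was at 8.8 and 8.8 in PBA-treated hIAPP islets, at 8.6 and 8.4 in untreated hIAPP islets, at 8.4 and 8.6 in PBA-treated wild-type islets, and at 8.3 and 8.2 in untreated wild-type islets. The arrays of the groups compared did not overlap, and the difference of 0.55 did not pass (SE 0.12, adjusted p = 0.1449). Atf4 was at 11.1 and 11.1 in PBA-treated hIAPP islets, at 10.5 and 10.6 in untreated hIAPP islets, at 11.0 and 11.1 in PBA-treated wild-type islets, and at 10.7 and 10.7 in untreated wild-type islets (0.40, SE 0.10, adjusted p = 0.1815). With an eBayes prior that has an intensity trend and robust estimation, Ddit3 (adjusted p = 0.0077) and Atf4 (adjusted p = 0.0055) passed. Xbp1, an effector of the unfolded protein response, differed by -0.10 (SE 0.11, adjusted p = 0.7949) and Trib3, a CHOP target, by 0.25 (SE 0.18, adjusted p = 0.6685), without passing.

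Acinar genes had the lowest median of the 50 lists, -2.05, and 0 of 33 passed. Arrays of the same group were far apart in them. At an unadjusted p under 0.05, 24 were lower and 1 higher, against 5.16% and 5.80% of all genes. The higher gene was Bhlha15, a transcription factor of secretory cells (0.50). Cpa1, a carboxypeptidase, was at 9.4 and 10.8 in PBA-treated hIAPP islets, against 12.6 and 11.2 in untreated wild-type islets (-1.80, SE 0.63, adjusted p = 0.3575). Prss2, a trypsin, was at 9.2 and 11.0, against 12.8 and 11.5 (-2.05, SE 0.67, adjusted p = 0.3092). The part of the acinar level in the other results was not tested beyond the covariate above, in which Sema5a and Snhg18 passed. The 7 measured Reg genes, which acinar cells also make, had a median of -1.80, and 0 passed.

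In 32 of the 50 lists 0 genes passed, and the median lay within 0.1 of 0 in 24. Sterol synthesis had 0 of 18, with 9 higher and 0 lower at an unadjusted p under 0.05 (5.80% and 5.16% of all genes) and a median of 0.28, against 0.70 in PBA-treated minus untreated wild type. The cell cycle had 0 of 39, with 9 higher and 2 lower at that p and a median of 0.15. Histone deacetylases had 0 of 14, oxidative phosphorylation 0 of 29, proteasome subunits 0 of 29, autophagy 0 of 21, glycolysis 0 of 17 and interferon-stimulated genes 0 of 29, with medians from -0.05 to 0.03. At that p, 0 interferon-stimulated genes were higher and 4 lower. For proteasome subunits 0 were higher and 3 lower, namely Psmb8 (-0.30), Psmb9 (-0.30) and Psmb10 (-0.55), named after their values were seen. Glycolysis had 2 higher and 0 lower at that p, autophagy 1 and 0, and the other 2 lists 0 and 0. Duct epithelium had 0 of 19 (median 0.15), lymphocytes and plasma cells 0 of 25 (-0.15), and red blood cell genes 0 of 5 (0.10). Of 10 adipocyte genes, Fabp4 was lower (-0.17). A gene can differ without a call here: 35 higher and 56 lower genes were at least 2-fold apart and did not pass.

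**Figure D5:**
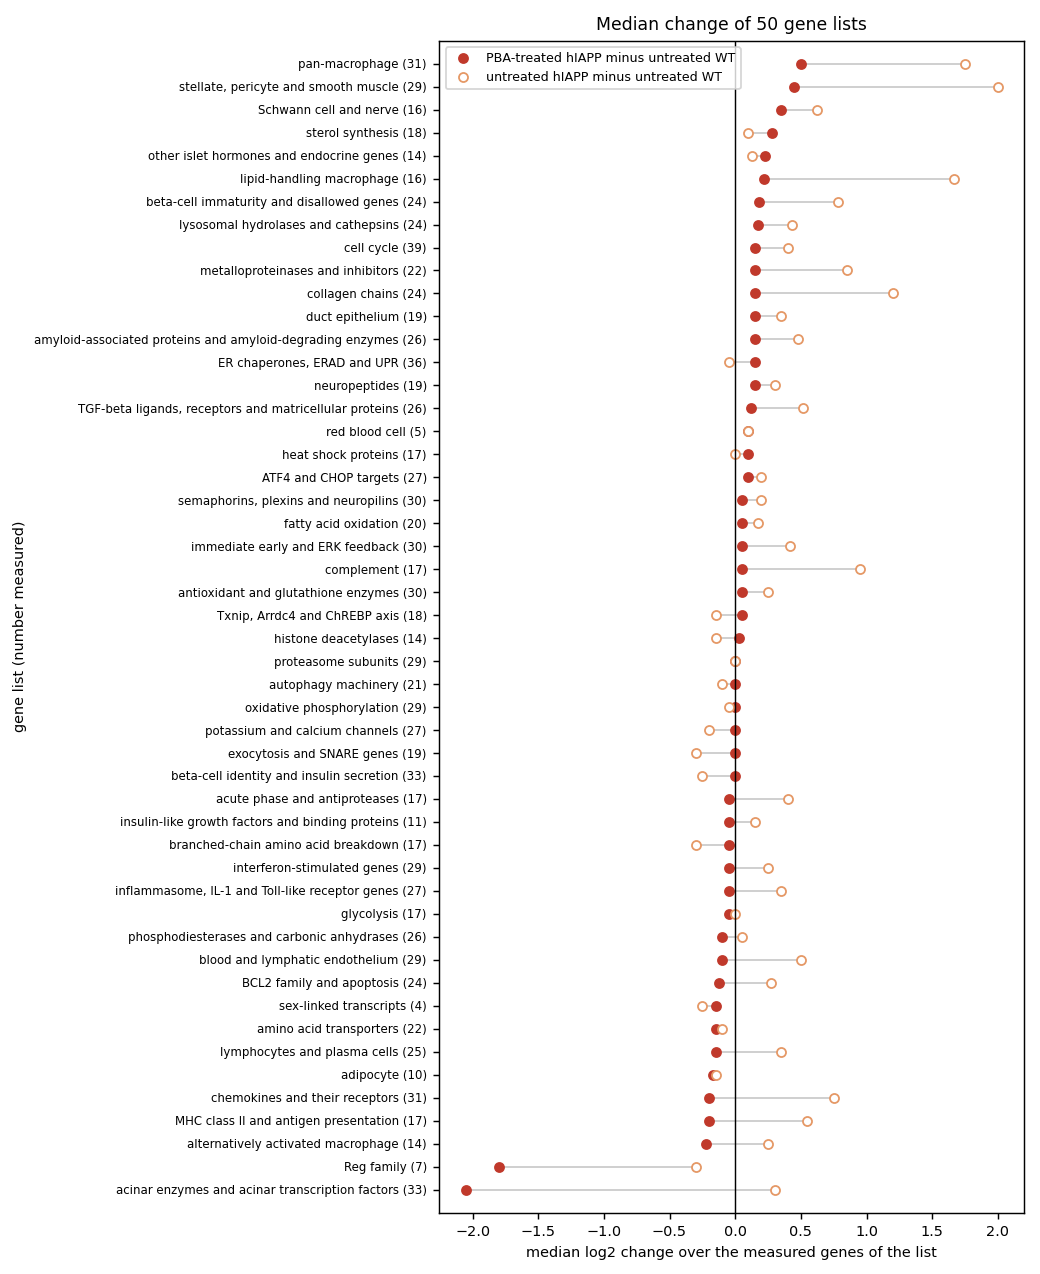
Median log2 change of the 50 gene lists, with the number of measured genes in brackets. Filled points are PBA-treated hIAPP minus untreated wild type and open points untreated hIAPP minus untreated wild type, which share the wild-type arrays. The stellate list is at 0.45 and 2.0 and the pan-macrophage list at 0.50 and 1.75, while the acinar list is at -2.05 in the PBA-treated comparison.

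The comparison of untreated hIAPP with PBA-treated wild-type islets uses none of the same arrays, though it shares the estimate of the spread. It called 2334 genes (13.7%), 8.73% of genes higher and 4.92% lower in hIAPP islets. Of the 63 genes, 38 also passed there in the same direction, 33 of the 43 higher and 5 of the 20 lower, which is 60.3% of the 63 and 1.63% of the 2334. Sema5a (4.90), Crispld2 (3.90), Ms4a7 (3.35), Snhg18 (2.35), Aldh1a3 (2.20) and Kcnf1 (-2.30) were among them. Another 8 passed in the opposite direction. These were Arg1 (-0.80 there) among the higher genes, and Ccl9 (3.10), Cd36 (2.65), S100a9 (2.05), S100a8 (1.70), Fabp4 (1.60), Cd74 (0.85) and Prr15l (0.70) among the lower genes. In each of these 8 genes, all 4 PBA arrays lay on the same side of all 4 untreated arrays, whatever the genotype. This is largely set by the choice of genes, since opposite calls put a PBA group on the same side of an untreated group in both comparisons. Over all genes, 1.98% had all 4 PBA arrays above all 4 untreated arrays and 1.57% had them below.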

How the data were processed

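Total RNA of isolated islets (150 ng per sample) was hybridised to 8 Affymetrix arrays, 2 per group. The deposited values are on the log2 scale and were made with RMA in the affy package, per the submitters' processing notes, with no version given there. RMA corrects background, brings the arrays to a common distribution and combines the probes of each set. The values carry 1 decimal. Genome build and annotation are not given in the sources used here. Of 45141 probe sets, 104 controls were left out. Probe sets with exactly 1 symbol numbered 28898, those with several 551 and those with none 15588. The set with the highest mean stood for each of the 17097 genes. Of the 63 genes called, 26 have several probe sets, and in 23 of these all sets changed in the same direction. Symbols, gene order and promoters are from RefSeq (GRCm38.p6).

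Means of the 4 groups were fitted to all 8 arrays with limma 3.58.1 in R 4.3.3 (4 residual and 3.27 prior degrees of freedom, prior SD 0.132 log2), two-sided, with Benjamini-Hochberg adjustment over all genes. The fit was tested on simulated data. No set test was used: 50 lists with 1059 measured genes were described by counts and medians. The comparison and the lists were chosen with earlier results of these data known. The text names the 12 largest rises and 12 largest falls among genes called with non-overlapping arrays, leaving out predicted and small RNA genes, up to 4 called members of each list, and 24 fixed genes. Genes outside that rule are marked. In 12 of the genes called, a compared group lies under the background of 4.68, which limits their fold changes. The number of arrays limits the precision. The alternatives tried were other arrays in the fit, a filter on dim genes, other probe set rules, other normalizations, another prior, an acinar covariate, a replicate block and leaving out arrays. A change of background correction was not run, since no scanner files were used. Python 3.11.15, pandas 2.3.3 and matplotlib 3.10.9 were used for tables and plots. Mafa, Ins1 and Iapp are not reported here.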

Additional observations from a re-analysis of the deposited data

How the results depend on the processing

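Against 63 genes called in all and 46 at least 2-fold, a fit of only the 4 compared arrays gave 0 and 0 (2440 at an unadjusted p under 0.05), the acinar covariate 2 and 2, an eBayes prior with an intensity trend and robust estimation 365 and 88, and leaving out array 1 of both PBA groups gave 1 and 1 (Sema5a). With 1 array left out the counts were 2 to 16, and 2 to 16 at 2-fold or more: 2 without either array of a compared group, which leaves a lone array assumed to vary like the other groups, 11 without either PBA-treated wild-type array and 16 without either untreated hIAPP array. A filter on dim genes gave 85, the mean over probe sets 73, all probe sets as features 73, arrays at the same median 63 and repeated quantile normalization 81. The replicate block gave 30 and 29. The titles link same-numbered arrays only by a number. Over all genes, their deviations from the group means correlated at -0.14 to 0.098, and whether they shared a preparation was not tested. In the fits without 1 array all 63 genes kept their sign, 2 passed all 8, 6 passed 4, 10 passed 2 and 45 none. Over the alternatives, the 61 named genes called gave 1036 values, of which 384 passed again, 652 did not and 0 changed sign. Atf4, Ddit3 and Ucn3 passed with the trend and robust prior, and Mmp12 under 3 alternatives. Of 850 list medians, 43 moved past their spread. The distance between compared arrays, a median of 0.200, was 0.175 without dim genes and 0.215 as a mean absolute difference, an alternative chosen after seeing the data. The causes were not tested.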

Other observations

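Several genes of the lists lay just outside the threshold of the limma fit and are named here after their values were seen. Tm7sf2, a sterol reductase of cholesterol synthesis, was at 7.3 and 7.3 in PBA-treated hIAPP islets, against 6.5 and 6.6 in untreated wild-type islets (0.75, SE 0.11, adjusted p = 0.0505), and at 7.5 and 7.7 in PBA-treated wild-type islets. The chemokine gene Ccl6 was at 4.8 and 4.5 in PBA-treated hIAPP islets, against 6.3 and 6.3 in untreated wild-type islets (-1.65, SE 0.24, adjusted p = 0.0514). Col8a1, a network-forming collagen chain, was at 7.0 and 7.0 in PBA-treated hIAPP islets, against 5.6 and 5.5 in untreated wild-type islets (1.45, SE 0.23, adjusted p = 0.0700), and at 9.1 and 9.1 in untreated hIAPP islets. Derl3, a component of ER-associated degradation, was at 9.0 and 8.7 in PBA-treated hIAPP islets, against 8.0 and 7.8 in untreated wild-type islets (0.95, SE 0.16, adjusted p = 0.0859). Edn2, an endothelin, was at 4.1 and 3.6 in PBA-treated hIAPP islets, against 5.7 and 5.1 in untreated wild-type islets (-1.55, SE 0.26, adjusted p = 0.0859). The PBA-treated hIAPP means of Ccl6 (4.65) and Edn2 (3.85) lay under the background of 4.68, so the sizes of these 2 differences are limited by it. In all 5 genes the arrays of the groups compared did not overlap, and no difference passed.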
